A study of Mus musculus with 6 samples.

Results

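The proteasome subunit genes were examined in mammary epithelial organoids of mice with and without Wwox, a gene lost in many breast cancers. Organoids are the fragments of ducts and alveoli left when the gland is digested. The members are all genes of the Psma, Psmb, Psmc, Psmd and Psme families that an array probe set names alone, 42 of the 18193 genes measured in this way, with 88 of 45037 probe sets. Each gene was read from its brightest probe set, the one with the highest mean over all arrays. Psme2 is not among them, because its probe set also names Psme2b.

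RNA came from 6 mice of 8 weeks and mixed (129/J; C57BL/6) background, with 1 Affymetrix whole-genome mouse array per mouse. All 6 mice carried Wwox flox/flox. The 3 WT mice (WT1, WT2 and WT3) were BK5-cre - and the 3 KO mice (KO5, KO6 and KO7) were BK5-cre +, which drives Cre recombinase from the bovine keratin 5 promoter in epithelial precursor cells. No mouse on the arrays had Cre with intact Wwox, so the presence of Cre and the loss of Wwox cannot be told apart. Values are log2 levels made by the authors with RMA, and every change is KO minus WT on that scale. Levels of different probe sets cannot be set against each other, because probes differ in how well they bind. In whole organoids, fewer cells of a type and less RNA per cell cannot be told apart either. Wwox itself was at 7.77, 7.63 and 7.72 in WT and 6.23, 5.87 and 5.96 in KO, a change of -1.69 (standard error 0.13, limma adjusted p = 0.0228). The luminal keratin genes Krt8 and Krt18 and the epithelial marker Epcam lay above 13.7 on all arrays, and the basal keratin gene Krt14 between 10.2 and 10.7.

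The proteasome degrades proteins that carry chains of ubiquitin. Its barrel-shaped 20S core is built of rings of α subunits, which form the gate, and rings of β subunits, some of which cut the substrate. The 19S cap on the barrel holds a ring of ATPases (Psmc genes), which unfold the substrate and feed it into the core, and non-ATPase subunits (Psmd genes), which bind ubiquitin chains, remove them or serve as scaffold. Other caps, encoded by the Psme genes, activate the core without ubiquitin. Cells adjust the transcription of the whole set together, and interferon-γ switches on β subunits that alter the peptides shown to T cells.

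On the brightest probe sets no proteasome gene changed by 2-fold in KO organoids. The median of the family lay near 0, with signs that differed between its parts. At an unadjusted p under 0.01 with a change of at least 2-fold, which defined a called probe set, limma called 0 of 42 genes higher and 0 lower, against 0.517% and 0.462% of all genes. At an unadjusted p under 0.05 with no fold limit, 15 of the 42 genes (35.7%) were lower, against 13.0% of all genes. Only 2 (4.76%) were higher at that limit, against 6.17% of all genes. Among the 1934 genes with a mean value of at least 10, a limit chosen after seeing the data, where 28 of the members lie, 14.1% were lower and 10.4% higher. After adjustment over all probe sets none of the 42 passed an adjusted p under 0.05, which 0.137% of all genes did, and the smallest adjusted p was 0.0854. The median change of the members was -0.13, beside -0.06 for all genes, and the members ran from -0.61 (Psmd6) to 0.61 (Psmd3). A negative sign was found in 30 of 42 members and in 11127 of all 18193 genes. After centring on ribosomal protein genes, where the median of all genes was 0.0032, 24 of 42 members had a negative sign.

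**Figure D1:**
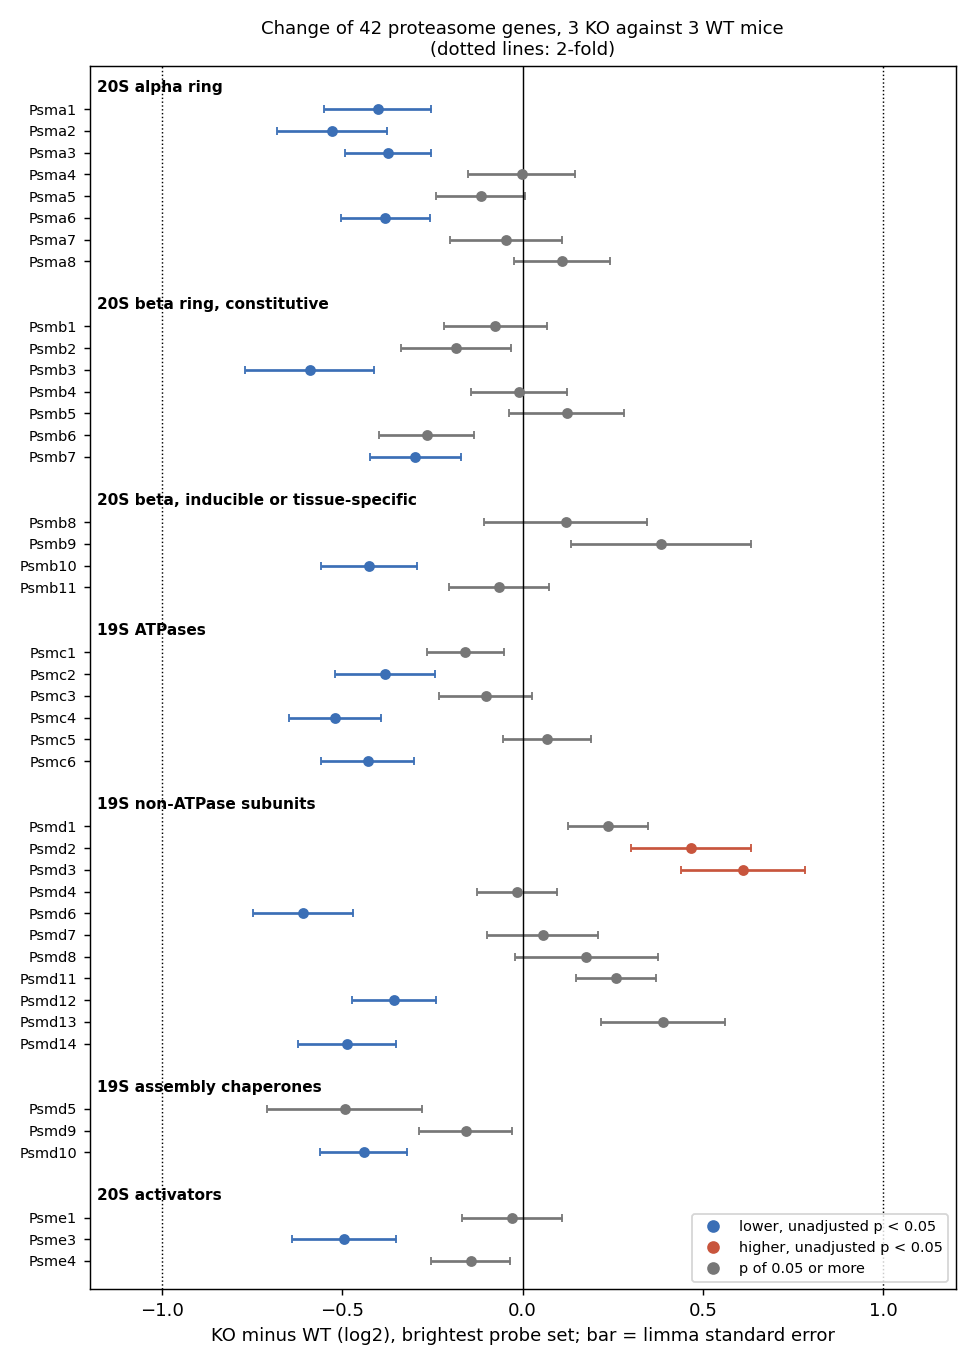
KO minus WT (log2) of the 42 proteasome genes on their brightest probe sets, grouped by subcomplex; points are changes, bars limma standard errors, and colour marks an unadjusted p under 0.05. All points lie inside the 2-fold lines, the 15 lower genes are spread over all 7 groups, and the 2 higher genes, Psmd2 and Psmd3, are 19S non-ATPase subunits.

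The spread among WT mice set the picture as much as the difference from KO. The SD of the 3 WT arrays was larger than that of the 3 KO arrays for 37 of 42 members, with medians of 0.22 and 0.08, while 59.9% of all genes had the larger SD in WT. WT1 was the WT array nearest to the KO mean for 30 of 42 members (71.4%), against 46.7% of all genes. It was the lowest WT array for all 15 genes that were lower at an unadjusted p under 0.05. Centred on each gene's mean, the median of the members was 0.02, -0.04 and 0.27 on WT1, WT2 and WT3 and -0.07, -0.14 and -0.01 on KO5, KO6 and KO7, so that the groups overlapped and WT3 stood highest. WT3 held the highest value of all 6 arrays for 26 of 42 genes. The shares of all genes for the counts of WT1 as lowest WT array and of WT3 as highest array are not known here. These counts cannot be read as particular to the members.

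The arrays also differed in RNA quality. The 3' minus 5' difference of control probe sets, which grows as RNA is degraded, averaged 0.96, 2.13 and 1.80 over Gapdh and β-actin on WT1, WT2 and WT3, and 0.55, 0.60 and 0.54 on KO5, KO6 and KO7. WT1 was thus the WT array closest to the KO arrays in this measure too. With this difference as a covariate, 0 of 42 genes were lower and 0 higher at an unadjusted p under 0.05 (limma), where 3.36% and 1.8% of all genes were. The median was then -0.12. Of the 30 genes with a negative sign 26 kept it and 4 turned positive, while 7 of the other genes turned negative. That covariate is higher on every WT array than on every KO array, which leaves little of the comparison to test. Against WT1 alone, a setting chosen after seeing the data, the counts were also 0 and 0, where 6.66% of all genes were lower and 3.28% higher, and 25 of the 30 kept a negative sign. Without WT1, 16 genes were lower and 5 higher at an unadjusted p under 0.05, where 16.2% and 8.79% of all genes were. At the unadjusted limit the shares of all genes thus moved in the same direction as those of the members. Without WT1, 5 and 2 of the members also passed an adjusted p under 0.05 (limma). The share of all genes at that adjusted limit is not known here for this setting, so these 2 counts cannot be read as particular to the members. How far RNA quality contributes to the values below was not tested beyond these settings.

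**Figure D2:**
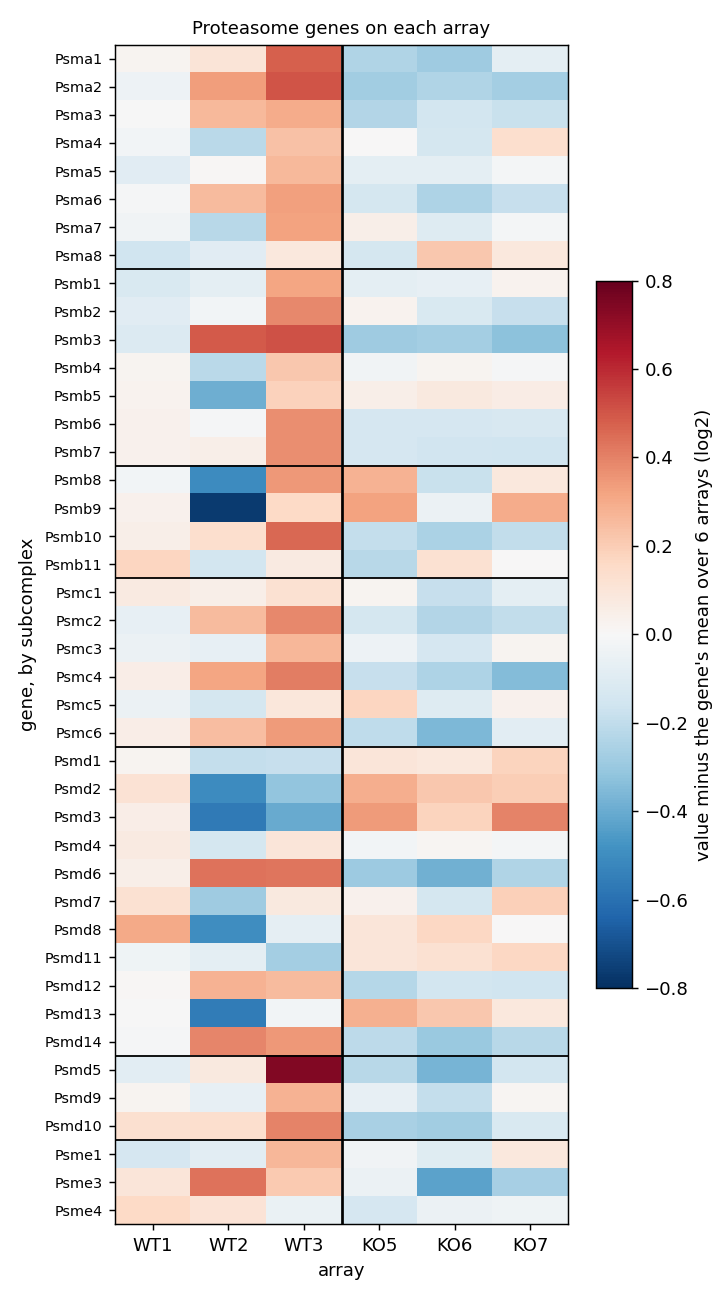
Value of each proteasome gene on each array minus its mean over the 6 arrays (log2, colour), with genes ordered by subcomplex and WT arrays at left. WT3 holds the highest value for 26 of 42 genes, and Psmd1, Psmd2, Psmd3, Psmd11 and Psmd13 have every KO array above every WT array.

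In the α ring of the core, 7 of 8 genes had a negative sign and 4 (50%) were lower at an unadjusted p under 0.05. At that limit 13.0% of all genes were lower, and 11127 of all 18193 genes had a negative sign. The median of the ring was -0.24. Psma2 was at 12.19, 12.56 and 12.73 in WT and 11.95, 11.99 and 11.96 in KO. The KO arrays lay close together (SD 0.019) and all under the lowest WT array, at a change of -0.53 (standard error 0.15, adjusted p = 0.131). Psma6 was at 12.22, 12.49 and 12.56 in WT and 12.09, 11.99 and 12.05 in KO, also without overlap (-0.38, adjusted p = 0.161). Psma3 was at 12.12, 12.38 and 12.42 in WT and 11.88, 11.97 and 11.94 in KO, and its groups did not overlap (-0.37, adjusted p = 0.156). Psma1 was the remaining one of the 4, at -0.40 (adjusted p = 0.203). The other genes that build this ring in somatic cells were close to 0, with Psma4 at -0.0022, Psma7 at -0.05 and Psma5 at -0.12. Psma8, whose product replaces an α subunit in the testis, lay between 3.27 and 3.65 on all arrays, with overlapping groups.

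Among the 7 constitutive β genes, 6 had a negative sign and 2 (28.6%) were lower at an unadjusted p under 0.05. The share of all genes was 13.0%, and the median of the 7 was -0.18. Psmb3, a structural β subunit, was at 11.31, 11.91 and 11.92 in WT and 11.13, 11.15 and 11.09 in KO. The change was -0.59 (standard error 0.18, adjusted p = 0.141), the groups did not overlap, and WT1 lay nearer to the KO arrays than to the other WT arrays. With the RNA quality covariate its change was 0.01, and against WT1 alone -0.18. Its second probe set, also bright, was at -0.21 (adjusted p = 0.481). Psmb1 and Psmb4, which are likewise structural, were at -0.08 and -0.01, and Psmb2 was at -0.18.

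The catalytic β subunits come in constitutive and inducible forms. Psmb5, Psmb6 and Psmb7 carry the chymotrypsin-like, caspase-like and trypsin-like activities of the standard core, and Psmb8, Psmb9 and Psmb10 take their places in the immunoproteasome. Psmb5 was at 10.87, 10.45 and 11.03 in WT and 10.89, 10.92 and 10.91 in KO, so that the KO arrays fell inside the WT range (0.12, adjusted p = 0.729). Psmb6 was at 11.39, 11.34 and 11.73 in WT and 11.22, 11.22 and 11.23 in KO, with no overlap (-0.27, adjusted p = 0.322). Psmb7 was at 9.35, 9.36 and 9.69 in WT and 9.19, 9.17 and 9.16 in KO, also without overlap (-0.30, adjusted p = 0.256). For Psmb6 and Psmb7 the KO arrays had SDs of 0.0063 and 0.013, and WT3 stood apart from WT1 and WT2.

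The inducible forms differed in sign. Psmb8 was at 10.70, 10.22 and 11.06 in WT and 10.99, 10.54 and 10.80 in KO, a change of 0.12 (standard error 0.23, adjusted p = 0.821). Psmb9 was at 9.09, 8.30 and 9.22 in WT and 9.39, 9.02 and 9.36 in KO, a change of 0.38 (standard error 0.25, adjusted p = 0.453). WT2 was the lowest array for both, the groups overlapped, and without WT2 the changes were -0.10 and 0.10. Psmb10 was at 9.46, 9.55 and 9.88 in WT and 9.23, 9.17 and 9.22 in KO. Its groups did not overlap, at -0.43 (standard error 0.13, adjusted p = 0.151), which places it with Psmb6 and Psmb7 rather than with Psmb8 and Psmb9 in sign. Psmb11, which belongs to the thymus, lay between 3.79 and 4.18 on all arrays.

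**Figure D3:**
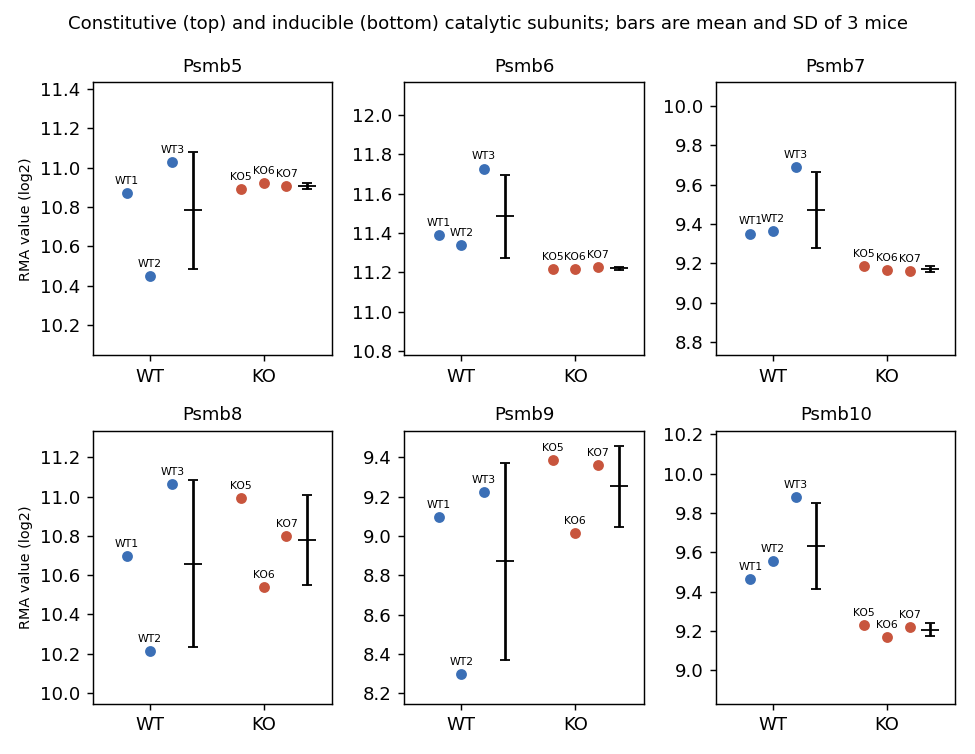
RMA values (log2) of the constitutive catalytic subunits and, below each, the inducible subunit that replaces it; each point is 1 array, error bars give mean and SD over 3 mice, and all panels span the same range. Psmb6, Psmb7 and Psmb10 have tight KO arrays under all WT arrays, while Psmb5, Psmb8 and Psmb9 overlap and are lowest on WT2.

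Psmb8 and Psmb9 lie in the MHC on chromosome 17, where the reference gene table places them next to the peptide transporter genes Tap1 and Tap2. Tap2 was at 9.37, 8.49 and 8.96 in WT and 10.38, 9.64 and 9.63 in KO, with no overlap and a change of 0.94 that was not called (adjusted p = 0.136). Tap1 was at 0.07 (adjusted p = 0.85). For MHC class I presentation 12 genes were measured, Tap1 and Tap2 among them, with a median of 0.13. Limma called 0 of them. At the unadjusted limit of 0.05 it found 2 (16.7%) on the higher side and 1 (8.33%) on the lower, against 6.17% and 13.0% of all genes. Immune cells are rich in the inducible subunits. Markers of macrophages and dendritic cells had a negative sign for 23 of 23 genes, with a median of -0.74, and those of lymphocytes for 16 of 16, with a median of -0.999. Of the former 4 were called lower and of the latter 0 (limma), against 0.462% of all genes. Of the lymphocyte markers 3 were lower at an unadjusted p under 0.05, against 13.0% of all genes. Markers of 2 other cell types ran the other way. Endothelial markers were positive for 12 of 13 genes (median 0.63) and fibroblast markers for 14 of 17 (median 0.31). In each of these lists 3 genes were called higher, against 0.517% of all genes. Luminal, basal and adipocyte markers had medians of 0.07, 0.02 and 0.19, with 0 called in each. Centred on each gene's mean, the immune marker medians ran from -0.40 to 1.03 (macrophages and dendritic cells) and from -0.51 to 1.85 (lymphocytes) in WT, highest on WT1, and from -0.91 to 0.20 and -0.89 to 0.19 in KO. The part of any of these cell types in the levels of Psmb8, Psmb9, Psmb10 or the other members was not tested.

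Of the 6 ATPase genes of the 19S base, 5 had a negative sign and 3 (50%) were lower at an unadjusted p under 0.05. The share of all genes was 13.0%, and the median of the 6 was -0.27. Psmc4 was at 11.00, 11.26 and 11.35 in WT and 10.76, 10.70 and 10.59 in KO. No KO array reached the lowest WT array, and the change was -0.52 (standard error 0.13, adjusted p = 0.0983). The second probe set of Psmc4, with a mean of 9.82, was at -0.18 (adjusted p = 0.393). Psmc6 was at 10.77, 10.96 and 11.06 in WT and 10.51, 10.36 and 10.63 in KO, without overlap (-0.43, adjusted p = 0.138). Psmc2 was at -0.38 (adjusted p = 0.197), with the groups apart. The second probe set of Psmc2, with a mean of 10.63, was at -0.14 (adjusted p = 0.598), with overlapping groups. Psmc1, Psmc3 and Psmc5 were at -0.16, -0.10 and 0.07, and among these the groups were apart for Psmc1.

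The non-ATPase subunits of the cap included genes on both sides. Of 11 genes, 2 (18.2%) were higher at an unadjusted p under 0.05 and 3 (27.3%) were lower, against 6.17% and 13.0% of all genes. A positive sign was found in 7, and the median was 0.18. Psmd3, a subunit of the lid, was at 9.93, 9.31 and 9.47 in WT and 10.21, 10.06 and 10.27 in KO. Every KO array lay above every WT array, at a change of 0.61 (standard error 0.17, adjusted p = 0.125), or 1.53-fold. Psmd2, a scaffold of the base that binds ubiquitin-like domains, was at 11.09, 10.47 and 10.66 in WT and 11.26, 11.19 and 11.17 in KO, again without overlap (0.47, adjusted p = 0.19). Psmd1, the other large base scaffold, was higher on every KO array too (0.24, adjusted p = 0.297), as were the lid genes Psmd11 (0.26, adjusted p = 0.261) and Psmd13 (0.39, adjusted p = 0.272). These 5 genes were the only members with every KO array above every WT array, against 7.20% of all genes, and WT1 was the highest WT array in all 5. How often WT1 was the highest WT array among all genes with that pattern is not known here. The other probe sets of Psmd13, all dimmer, were at 0.20, -0.11 and 0.05, with overlapping groups.

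The genes on the lower side included other lid subunits. Psmd6 was at 10.76, 11.15 and 11.14 in WT and 10.43, 10.33 and 10.48 in KO. This was the lowest change among the members, at -0.61 (standard error 0.14, adjusted p = 0.0854), or 0.656 of the WT level, and the groups did not overlap. Psmd14, the deubiquitinase that removes the chain before degradation, was at 11.56, 11.96 and 11.92 in WT and 11.36, 11.28 and 11.35 in KO (-0.49, adjusted p = 0.122), and Psmd12 was at -0.36 (adjusted p = 0.161), both without overlap. The ubiquitin receptor gene Psmd4 was at -0.02 (adjusted p = 0.956) on its brightest probe set. A second one, at 9.57, 8.93 and 9.51 in WT and 9.95, 9.69 and 9.71 in KO, had every KO array above every WT array (0.45, adjusted p = 0.251). With WT1 as the only WT array the changes of Psmd6, Psmc4, Psmd3 and Psmd2 were -0.35, -0.32, 0.26 and 0.12, and with the RNA quality covariate -0.23, -0.24, 0.04 and -0.09. The sign of Psmd2 therefore did not hold with the covariate, nor did that of Psmd13, at -0.023, and Psmd1 was then at 0.03 and Psmd11 at 0.16. The median of the 11 genes turned as well, to -0.03 without WT2, -0.08 against WT1 alone and -0.10 with the covariate.

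**Figure D4:**
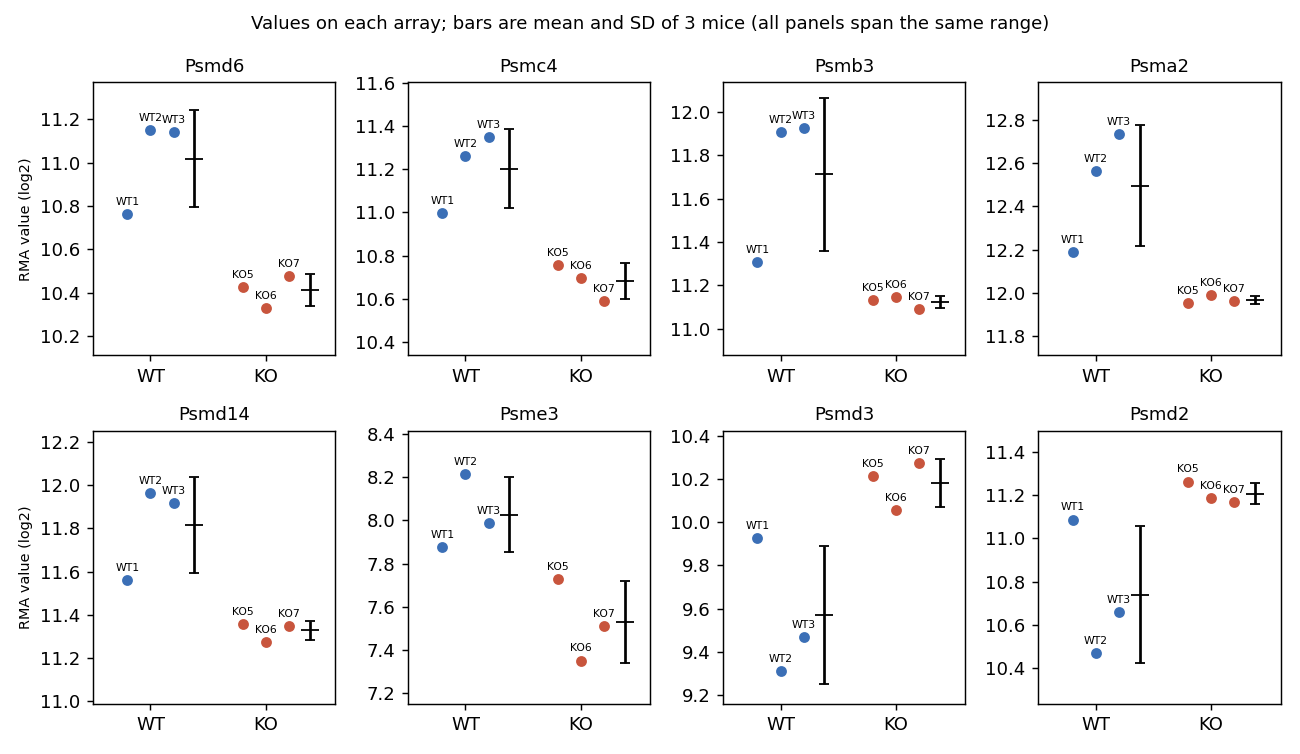
RMA values (log2) of 8 proteasome genes; each point is 1 array, error bars give mean and SD over 3 mice, and all panels span the same range. In the first 6 panels every KO array lies below every WT array, in Psmd3 and Psmd2 above, and WT1 is the WT array nearest to KO in each.

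Of the assembly chaperones of the base, which are not part of the finished particle, Psmd10 (also called gankyrin) was at 8.59, 8.59 and 8.85 in WT and 8.20, 8.18 and 8.33 in KO. The groups did not overlap, at -0.44 (standard error 0.12, adjusted p = 0.118). Psmd5 was at -0.49 (adjusted p = 0.268), with the groups apart but a wide WT spread, from 8.17 on WT1 to 8.99 on WT3, and Psmd9 was at -0.16 with overlapping groups.

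Among the alternative caps, Psme3, a nuclear activator of the core, was at 7.88, 8.21 and 7.99 in WT and 7.73, 7.35 and 7.51 in KO. Its change was -0.49 (standard error 0.14, adjusted p = 0.135) and the groups did not overlap. Psme1, a subunit of the interferon-inducible activator, was at 11.71, 11.76 and 12.11 in WT and 11.81, 11.75 and 11.93 in KO, with overlap and a change of -0.03 (standard error 0.14, adjusted p = 0.935). Psme4, which encodes the large single-chain activator, was at 9.84, 9.80 and 9.64 in WT and 9.55, 9.64 and 9.66 in KO, with overlap (-0.14, adjusted p = 0.522). Its other probe sets did not share that change. The second brightest, with a mean of 9.33, was at 0.05 (adjusted p = 0.886). The next, with a mean of 7.17, was at 0.46 (adjusted p = 0.322), and the dimmer ones were at 0.08, 0.20 and -0.0019. Over all groups, every KO array lay below every WT array for 18 of 42 members (42.9%), against 16.1% of all genes, and WT1 was the lowest WT array in 16 of these 18. For that last count the share of all genes is not known here.

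The probe sets of a gene did not always tell the same story. Of the 42 genes 22 have several probe sets, and among the 46 probe sets that are not the brightest, 14 of 23 with a mean of at least 6 shared the sign of the brightest and 12 of 23 dimmer ones did. Of all 88 probe sets, 21 passed an unadjusted p under 0.05 on the lower side and 6 on the higher side, against 9.74% and 9.54% of all probe sets. The single called probe set of the family was a dim one of Psma3, which rose from 4.75, 4.30 and 4.52 in WT to 6.02, 5.42 and 6.32 in KO. This is a change of 1.40 (standard error 0.24, adjusted p = 0.0571), 1 of 88 probe sets called higher against 1.69% of all probe sets and 0 of 88 called lower (limma) against 0.300%. It was opposite in sign to the brightest Psma3 probe set. It was not called with the RNA quality covariate, at 0.97, or against WT1 alone, at 1.17. A dim Psmc2 probe set, at 3.21, 3.35 and 3.45 in WT and 3.87, 3.88 and 3.89 in KO, was likewise opposite to its brightest one (0.55, adjusted p = 0.0691). Which part of the transcripts these probe sets match is not known here.

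For some other genes most probe sets ran together. All 3 probe sets of Psmc6 were lower at an unadjusted p under 0.05, at -0.43, -0.73 and -0.63, the second of them from 8.94, 9.28 and 9.40 in WT to 8.54, 8.40 and 8.49 in KO (adjusted p = 0.0675). For Psma6 3 of 4 were lower, at -0.38, -0.37 and -0.42, and the dimmest was at 0.13. For Psme3 2 of 3 were lower, at -0.49 and -0.46, and both of Psmd6 were, at -0.61 and -0.37. The 8 probe sets of Psmd11 did not run together, and lay between -0.18 and 0.69. Its second brightest, with a mean of 10.24, was at -0.18 (adjusted p = 0.54), opposite in sign to the brightest at 0.26. The 1 at 0.69 was higher at an unadjusted p under 0.05 (adjusted p = 0.182). The brightest probe sets of Psma6 and Psmc2, and the Psma6 one at -0.42, belong to a class (_x_at) that can also bind related sequences. Transcripts of other origin may therefore add to their values. The brightest probe sets of Psmd11 and Psme4, and the Psmc6 one at -0.73, carry another suffix (_s_at). What these match beyond their gene is not known here.

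**Figure D5:**
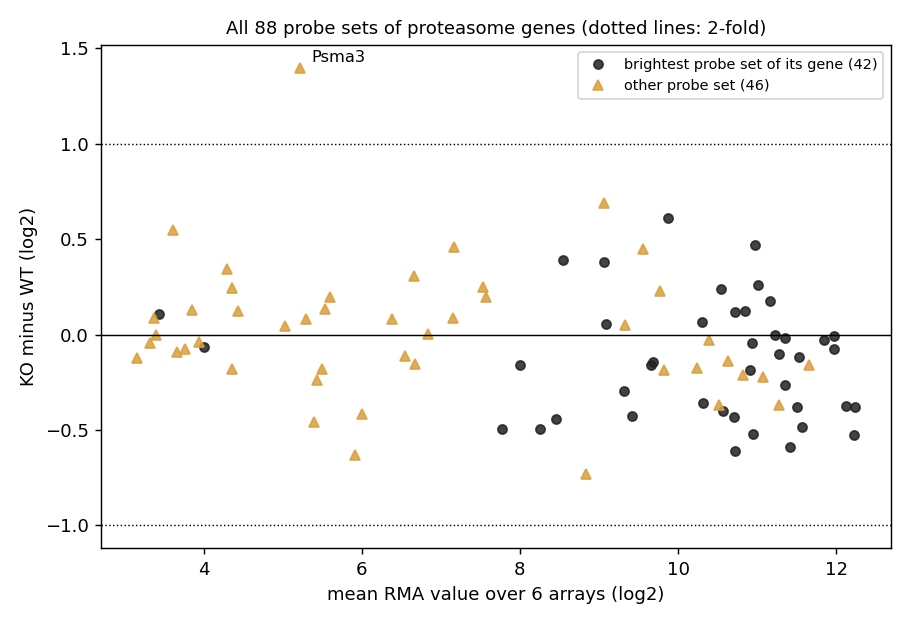
KO minus WT (log2) against the mean value over 6 arrays (log2) for all 88 probe sets of proteasome genes; circles are the brightest probe set of each gene, triangles the others. Only the dim Psma3 probe set, at 1.40, lies outside the 2-fold lines.

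Promoter sequences are shown because genes of this family are known to be transcribed together, by the Nfe2l1 factor through antioxidant response elements and, for many, through NF-Y boxes. Windows from RefSeq (GRCm38.p6), 250 bases before to 50 after the start, were found for 35 of the 42 members and searched on both strands. The NF-Y box (CCAAT) was in 14 of 35 members (40%), close to the 41.1% of all genes, but in 9 of the 14 members that were lower at an unadjusted p under 0.05 and have a window, and in 5 of the other 21. The core of the antioxidant response element (TGACNNNGC) was in 6 of 35 (17.1%) against 14% of all genes, 2 of them among the 14 lower members and 4 among the other 21. The core of the interferon-stimulated response element (GAAANNGAAA) was in 4 of 35 (11.4%) against 3.99%, namely Psmb3, Psmd4, Psmd9 and Psme1. Of these 1 was among the 14 and 3 among the 21. Sites of different motifs overlapped in 0 cases. No site was found for Psmb8 or Psmb10, and only an NF-Y box for Psmb9. The 7 members without a window were not searched, and whether Psmb8 or Psmb10 is among them is not known here. These are descriptions of letters in a window. The split of the members by p was made on these same data, and a link between a motif and a lower value was not tested. Stretches before the start are given with the motif in capitals (ATTGG, or the reversed form of the other motifs, where it lies on the other strand), for 4 lower genes with an NF-Y box and for genes with the other motifs, of which Psmb3 and Psmc6 were among the lower genes and Psmb5 was not.
Psma1 NF-Y boxes, one on each strand (chr7:114276170-114276254, minus strand): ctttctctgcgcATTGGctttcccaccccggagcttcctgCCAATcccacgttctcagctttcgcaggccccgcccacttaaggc
Psma2 NF-Y box (chr13:14613148-14613232, plus strand): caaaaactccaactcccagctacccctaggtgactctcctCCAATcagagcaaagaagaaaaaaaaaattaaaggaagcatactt
Psmb3 NF-Y box (chr11:97703309-97703393, plus strand): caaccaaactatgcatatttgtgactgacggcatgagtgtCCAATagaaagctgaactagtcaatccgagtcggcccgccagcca
Psmd14 NF-Y box (chr2:61711495-61711579, plus strand): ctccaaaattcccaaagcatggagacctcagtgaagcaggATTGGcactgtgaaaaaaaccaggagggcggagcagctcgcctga
Psmc6 antioxidant response element core (chr14:45329574-45329645, plus strand): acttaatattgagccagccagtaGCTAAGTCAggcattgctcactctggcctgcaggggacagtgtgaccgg
Psmb5 antioxidant response element core (chr14:54617996-54618082, minus strand): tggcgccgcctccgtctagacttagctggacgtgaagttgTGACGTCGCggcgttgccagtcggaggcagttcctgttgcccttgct
Psmb3 interferon-stimulated response element core (chr11:97703231-97703320, plus strand): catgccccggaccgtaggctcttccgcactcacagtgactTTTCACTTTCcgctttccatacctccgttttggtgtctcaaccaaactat

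The genes that surround the proteasome in its pathway were read from lists of known factors, limited to genes with a probe set of their own. Of 13 assembly and associated factors, none was called and the median was -0.13. At an unadjusted p under 0.05, 3 (23.1%) were lower and 1 (7.69%) was higher, against 13.0% and 6.17% of all genes. The 3 were Txnl1, a thioredoxin-like protein bound to the cap (-0.45, adjusted p = 0.138), and the chaperones of the α ring Psmg2 (-0.53, adjusted p = 0.198) and Psmg4 (-0.27, adjusted p = 0.226). The higher one was Ecpas, which bridges core and cap (0.30, adjusted p = 0.187). Psmg2 was at 8.87, 9.23 and 9.63 in WT and 8.81, 8.59 and 8.72 in KO, with WT1 again next to the KO arrays. Of 8 ubiquitin and shuttle genes 2 (25%) were higher at that limit, against 6.17% of all genes. They were the E1 enzyme gene Uba6 (0.55, adjusted p = 0.179) and Vcp, the segregase that extracts ubiquitinated proteins (0.52, adjusted p = 0.224). Vcp was at 12.282, 11.582 and 11.548 in WT and 12.390, 12.275 and 12.296 in KO, so that WT1 lay among the KO arrays. Its cofactor gene Ufd1 was the only one of the 8 that was lower (-0.30, adjusted p = 0.218), or 12.5% against 13.0% of all genes. Of 8 regulators of proteasome genes, 1 (12.5%) was higher at that limit, Foxo4 (0.41, adjusted p = 0.193), and none was lower. The shares of all genes were 6.17% and 13.0%. Nfe2l1 was at 10.93, 9.67 and 9.56 in WT and 10.80, 10.68 and 10.59 in KO (0.64, adjusted p = 0.354), so that WT1 lay above all KO arrays and the other WT arrays below them. None of the genes in these lists was called by limma.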

How the data were processed

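Log2 values of 6 Affymetrix arrays, 3 WT and 3 KO, were used as deposited. The authors made them with RMA (per the labels), which corrects background, quantile normalizes and summarises probes. Their methods name simpleaffy and limma, and the RMA version is not given in the sources used here. Of 45101 probe sets 64 controls were left out of the tests. A linear model of all 45037 probe sets (lmFit, then eBayes; limma 3.58.1 under R 4.3.3) gave KO minus WT, with Benjamini-Hochberg adjustment over all of them and no covariate. The step was tested on simulated data. The number of arrays limits the precision. Symbols came from the platform annotation, through probe sets with 1 symbol, and the gene identifiers of all 42 members were in the RefSeq gene table. The text gives values for members with a called probe set, the 10 with the smallest p, catalytic subunits, activators and up to 4 genes per other list. Psmd1, Psmd2, Psmd5, Psmd11 to Psmd13 and the other members named were added after their values were seen. The members and lists were chosen with earlier results of these data known. Alternatives were other normalizations, centring, a filter, priors, array weights, a replicate block, a covariate for RNA quality, arrays left out and other values per gene. Figures were drawn in matplotlib 3.10.9 (Python 3.11.15).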

Additional observations from a re-analysis of the deposited data

How the results depend on the processing

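No member was called on its brightest probe set in any setting run, and with any probe set counted 1 gene was called higher. The number of members lower at an unadjusted p under 0.05 was 15 and the number higher 2. With arrays left out in turn they ranged from 9 (without WT3) to 16 (without WT1) and from 1 (without WT2, KO5, KO6 or KO7) to 5 (without WT1). The higher count was 5 with cyclic loess, ribosomal protein centring or array weights. Both counts were 0 with RNA quality (Gapdh, β-actin) as a covariate and 0 against WT1 alone, where a single WT array borrows its spread from KO. The shares of all genes fell there too, to 3.36% lower and 1.8% higher with the covariate and 6.66% and 3.28% against WT1 alone, from 13.0% and 6.17%. The lower count was 11 when the probe sets of each gene were averaged and between 14 and 16 in the other settings. The median change moved by less than the SD of the array medians (0.12) in every setting, from -0.16 without WT2 to -0.04 without WT3, while the median of all genes was 0.0032 after ribosomal protein centring. That SD is close to the size of the median change itself (-0.13). A fall almost to 0 would also have stayed within it, so this limit does not show that the median is stable. Wwox was called in each fit it was tested in, but its adjusted p ran from 0.00411 (without WT1) to 0.48 (covariate). With the covariate 4 members turned positive, Psma5 (0.05), Psmb1 (0.07), Psmb3 (0.01) and Psme1 (0.10). Another 7 turned negative, Psmb5 (-0.14), Psmb8 (-0.15), Psmb9 (-0.19), Psmd2 (-0.09), Psmd7 (-0.27), Psmd8 (-0.50) and Psmd13 (-0.02). Psmd8 was at 0.18 without the covariate. With arrays left out in turn Psmb8 ran from -0.10 (without WT2) to 0.32 (without WT3), Psmb5 from -0.044 (without WT2) to 0.24 (without WT3) and Psme1 from -0.11 (without WT1) to 0.10 (without WT3). Psme1, at -0.03, turned with cyclic loess (0.0095), ribosomal protein centring (0.039), array weights (0.0029) and without KO6 (0.01), and against WT1 alone (0.12). With the replicate number as a block 15 members were lower and 2 higher. The numbers give no pairing, since same-numbered arrays had correlations of deviations of -0.16, 0.16 and 0.10, and 3 of 6 arrays correlated best with their own number. With 3 arrays a group, changes under the spread of the WT arrays cannot be resolved.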
